A study of Mus musculus with 24 samples.

Results

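Chromatin accessibility was examined at 9 genes of the Wnt pathway and among its targets: Axin2, Lef1, Tcf7, Tcf7l1, Tcf7l2, Ctnnb1, Sp5, Lgr5 and Nkd1. Their members were all ATAC-seq intervals that overlap a gene body, or the 20 kb on either side of it, in assembly GRCm38. The rule gave 303 of the 299780 Ctrl intervals and 287 of the 272268 Paused intervals, of which 286 and 278 passed the filter on low values. ATAC-seq reads out open chromatin by the places where the Tn5 transposase can insert adapters. All were mouse embryonic stem cells of the E14 line, kept in serum with leukemia inhibitory factor on gelatin. WT cells and the Smad2 knockout lines Smad2_KO1 and Smad2_KO2 were each sampled without inhibitor (Ctrl) and after 12 hours in 200 nM INK128, an mTOR inhibitor (Paused). Each of the 6 groups had 4 libraries of 50000 live cells, 24 in all. Whether a knockout line is 1 clone, how Smad2 was disrupted, and whether the 4 libraries came from separate cultures are not given in the sources used here, so p-values measure the spread between these libraries, which may be technical.

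In canonical Wnt signalling, ligands bound to Frizzled and LRP receptors at the surface spare β-catenin (Ctnnb1) from a destruction complex, and β-catenin then enters the nucleus and joins DNA-bound TCF/LEF factors. In mouse embryonic stem cells this relieves repression by TCF7L1 and favours self-renewal. SMAD2 carries Activin and Nodal signals to the nucleus in a complex with SMAD4, and mTOR inhibition places such cells in a reversible state that resembles diapause.

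Sp5, a zinc finger factor and a known direct target of the pathway, is the locus at which the knockout lines stood apart in both treatments. Axin2 and Tcf7l2 carried their strongest interval at the start of the gene. The 250 bases before the listed start of these 3 genes are shown (RefSeq, GRCm38.p6, 5′ to 3′). Sp5 stood apart, while the start intervals of Axin2 and Tcf7l2 did not. Capitals mark a match to CTTTGAA or CTTTGAT, the letters bound by TCF/LEF factors, or to CAGAC, the SMAD box, on either strand. 
Sp5, chr2:70474673-70474922, + strand: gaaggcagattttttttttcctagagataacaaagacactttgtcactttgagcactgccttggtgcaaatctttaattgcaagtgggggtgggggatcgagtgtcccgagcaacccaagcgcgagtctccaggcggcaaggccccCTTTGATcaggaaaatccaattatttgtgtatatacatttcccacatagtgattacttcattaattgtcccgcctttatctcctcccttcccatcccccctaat
Axin2, chr11:108920099-108920348, + strand: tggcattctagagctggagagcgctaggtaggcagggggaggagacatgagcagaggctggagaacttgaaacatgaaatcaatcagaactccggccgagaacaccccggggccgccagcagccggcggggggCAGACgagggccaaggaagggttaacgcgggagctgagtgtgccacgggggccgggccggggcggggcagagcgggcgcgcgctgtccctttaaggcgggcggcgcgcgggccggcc
Tcf7l2, chr19:55741560-55741809, + strand: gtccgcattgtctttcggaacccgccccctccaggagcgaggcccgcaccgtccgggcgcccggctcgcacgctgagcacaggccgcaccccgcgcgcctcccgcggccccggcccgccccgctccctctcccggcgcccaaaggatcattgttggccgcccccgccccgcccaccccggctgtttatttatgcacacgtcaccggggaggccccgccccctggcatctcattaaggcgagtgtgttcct
The capitals in Sp5 are a TCF/LEF match, at bases -104 to -98 with the start counted as 0, and those in Axin2 are a SMAD box at -117 to -113. No capital stands in the Tcf7l2 stretch. Past the start, outside the printed bases, a SMAD box stands at 16 to 20 in Sp5 and at 26 to 30 in Tcf7l2. Over 300-base windows that also hold the first 50 bases from the start, 14 windows matched 8 of the 9 genes (all but Lgr5). A TCF/LEF match was found in 1 of the 14, that of Sp5, and in 8.65% of all 32851 promoter windows. A SMAD box was found in 8 of the 14, and in 49.6% of all windows. These are matches of letters only. Intervals covered 159 of the 300 bases of the Axin2 window in Ctrl and 201 of those of Tcf7l2, while no interval analysed here covered any base of the Sp5 window in either treatment.

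Values are normalized reads per interval, that is, reads divided by a factor for each library that the authors applied. Nearly all intervals are 201 bases wide, so levels can be compared between intervals of a table. Reads in intervals ran from 11772458 to 16525762 per library in Ctrl and from 11456986 to 20007829 in Paused, and in Paused every Smad2_KO1 library was deeper than every WT library. In Paused, the replicate 2 libraries of Smad2_KO1 and Smad2_KO2 differed by no more than sampling noise would give (chi-square per degree of freedom 1.00, limit 1.01). The other same-numbered pairs of the knockout lines differed by more, at up to 1.07 in Paused and from 1.02 to 1.27 in Ctrl, beside a mean of 1.25 for knockout pairs of different numbers in either treatment. Since the labels assign those replicate 2 libraries to different lines, they were not merged, and the counts without either are given with the calls. ATAC-seq signal does not show whether SMAD2 protein is lost, so the line labels were taken as given. The embryonic stem cell label was checked against 8 marker genes. Of these, 7 had an interval, and their median strongest interval stood at percentile 99.1 of all genes in both tables, while Dppa5a had none analysed here. In Ctrl and Paused that percentile was 95.3 and 95.6 for primitive endoderm markers and 92.7 and 89.6 for trophoblast markers. It was 91.1 and 87.5 for mesendoderm markers and 88.0 and 89.3 for embryonic fibroblast markers. All lists thus ranked high, and the percentile alone does not settle the label. Summed signal at 4 embryonic fibroblast markers was 444 to 454 in Ctrl WT libraries against 365 to 415 in knockout libraries, and 588 to 705 against 487 to 562 in Paused; all 4 had intervals, and the part of this difference in the results was not tested. Sums at primitive endoderm, trophoblast and mesendoderm markers overlapped between WT and knockout libraries. In bulk ATAC-seq, fewer cells with an open site and less opening per cell cannot be told apart.

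Summed over all intervals of a gene's window, accessibility at Sp5 was lower in both knockout lines in both treatments. In Ctrl the Sp5 sums were 385, 368, 346 and 411 for WT, 249.6, 236, 284 and 253 for Smad2_KO1 and 255, 258, 277 and 233 for Smad2_KO2. In Paused they were 281, 306, 276 and 298 for WT, 224, 200.3, 248 and 207 for Smad2_KO1 and 195, 211, 183 and 218 for Smad2_KO2. Every knockout library was below every WT library in each treatment, and the knockout lines overlapped each other. The log2 fold change against WT was -0.56 for Smad2_KO1 and -0.56 for Smad2_KO2 (SE 0.0825 each, limma adjusted p = 2.93e-06 and 2.98e-06) in Ctrl. It was -0.40 for Smad2_KO1 and -0.53 for Smad2_KO2 (SE 0.0851 each, limma adjusted p = 0.000426 and 1.41e-05) in Paused. Sp5 was the 1 locus of the 9 called in both lines (adjusted p under 0.05 in each line with the same sign), in Ctrl and in Paused alike. Among all loci, 8.35% were so called in Ctrl (5.0% lower) and 27.1% in Paused (20.5% lower). A mean fold change lower than that of Sp5 was found at 95 of 20388 loci in Ctrl and 170 of 20236 in Paused. Median log2 fold changes over all loci were -0.02 and -0.05.

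**Figure D1:**
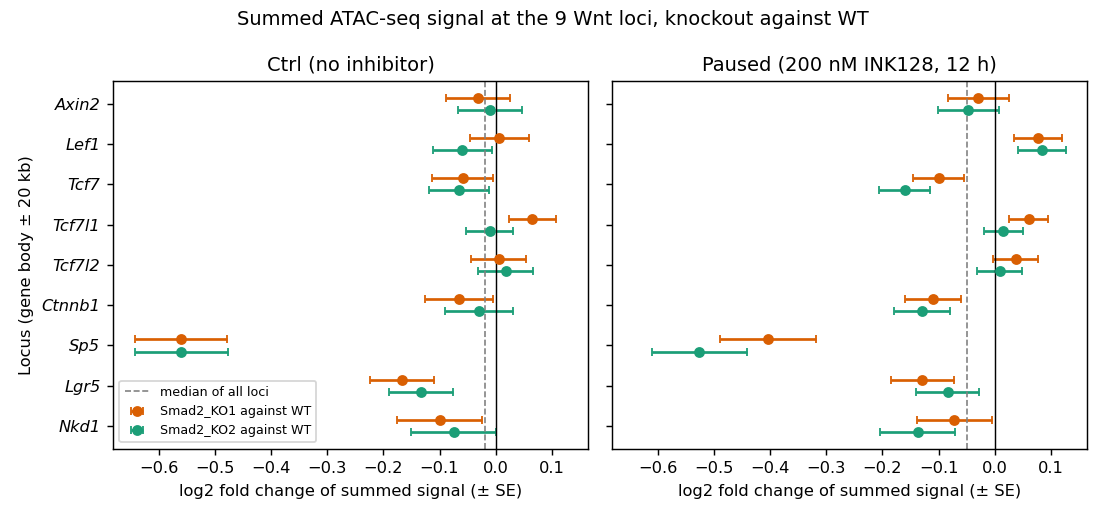
Log2 fold change of the summed ATAC-seq signal against WT (x axis, points with SE, n = 4 libraries per line) at the 9 loci (y axis), for Smad2_KO1 and Smad2_KO2 in Ctrl and Paused, with the median of all loci dashed. Sp5 lies at -0.56 for both lines in Ctrl and at -0.40 and -0.53 in Paused, away from the other 8 loci.

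The members' single intervals changed in both directions. In Ctrl, 16 of 286 tested intervals were called in both lines, 7 higher and 9 lower, which is 5.59% against 7.15% of all tested intervals (3.95% higher, 3.2% lower). In Paused, 33 of 278 were called, 21 higher and 12 lower, which is 11.9% against 13.9% of all (9.01% higher, 4.92% lower). The share of members called was thus not above that of the whole table in either treatment. The median log2 fold change, as the mean of both lines, was 0.01 over the members and 0.08 over all intervals in Ctrl, and 0.07 and 0.12 in Paused. Between directions the split depends on the scaling: with DESeq2 size factors it was 6 higher and 14 lower in Ctrl and 17 higher and 20 lower in Paused, with TMM factors 6 and 14, and 17 and 19, and with library totals 10 and 9, and 26 and 11. The median over all Paused intervals thus moved from 0.12 to 0.02 with size factors. Without Smad2_KO1 replicate 2 the Paused count was 26, and without Smad2_KO2 replicate 2 it was 30.

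All 8 knockout libraries lay on 1 side of all 4 WT libraries at 23 tested member intervals in Ctrl, 10 higher and 13 lower, where 7.48% of all tested intervals did so (4.16% higher, 3.32% lower). In Paused this held for 34, 24 higher and 10 lower, against 11.5% of all (7.25% higher, 4.2% lower). Against WT singly, Smad2_KO1 and Smad2_KO2 passed at 26 member intervals each in Ctrl (11.6% and 10.7% of all) and at 48 and 45 in Paused (19.4% and 19.3%). Between Smad2_KO1 and Smad2_KO2, limma called 0 member intervals in either treatment, as it did over the whole tables (0.0% of intervals). At an unadjusted p under 0.05, 12 Ctrl and 5 Paused member intervals differed between the lines, where 3.28% and 1.97% of all tested intervals did. Both shares are under the 0.05 expected if the lines did not differ and all libraries varied alike. The fit shares its spread with the WT libraries, and the reason for the low shares was not tested. The absence of calls is therefore no test of whether the knockout lines are independent. In the authors' deposited table, which compares the 8 knockout with the 4 WT libraries as 1 group, 34 Ctrl member intervals had a false discovery rate under 0.05 (12.2% of all), 15 higher (6.27%) and 19 lower (5.93%). The authors' deposited table lists 52 for Paused (21.6% of all), 30 higher (12.6%) and 22 lower (8.96%), and all 16 and 33 intervals called here are among those listed, with the same sign. At a false discovery rate under 0.01 the authors' deposited table lists 19 in Ctrl (6.15% of all) and 32 in Paused (11.4%).

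**Figure D2:**
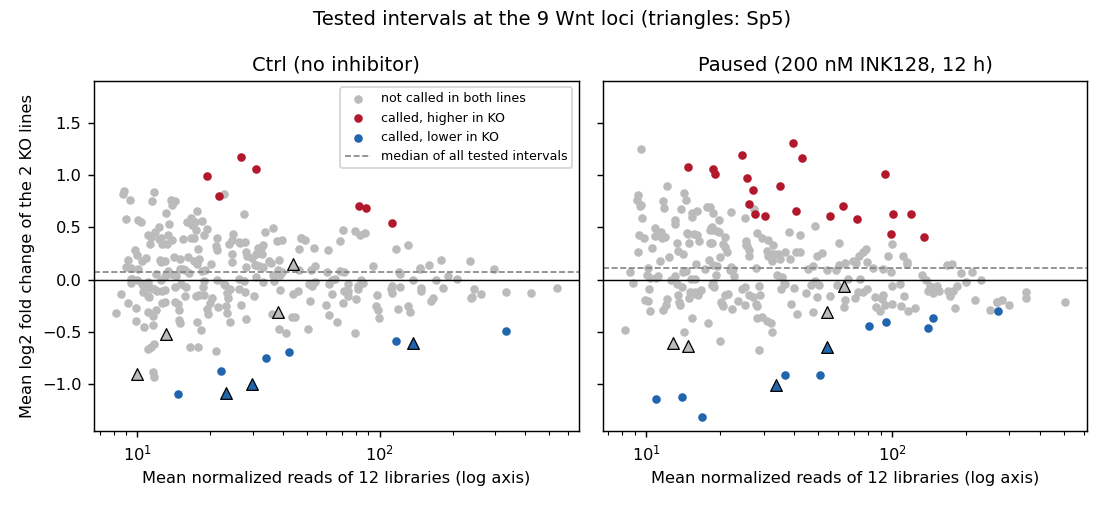
Each tested member interval by its mean normalized reads over 12 libraries (x axis, log scale) and the mean log2 fold change of the 2 knockout lines (y axis), with called intervals in red (higher) and blue (lower) and Sp5 as triangles. Higher calls outnumber lower ones in Paused (21 and 12), and the Sp5 triangles lie below 0 except 1 interval in Ctrl.

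Of 7 Sp5 intervals in Ctrl, all tested, 3 were called, all lower, which is 42.9% of those tested. The strongest of them lies 2.8 kb before the start, at chr2:70471906-70472106. Its values were 199, 184, 146 and 189.8 for WT, 113, 99.7, 142 and 111 for Smad2_KO1 and 119, 124, 124 and 105 for Smad2_KO2. All knockout libraries were below all WT libraries, the closest being WT replicate 3 and Smad2_KO1 replicate 3. limma gave a log2 fold change of -0.62 for Smad2_KO1 and -0.59 for Smad2_KO2 (SE 0.12 each, limma adjusted p = 0.000344 and 0.000623). No interval analysed here in Paused overlaps it. The nearest Paused interval, at chr2:70473379-70473579, averaged 62.5 ± 9.84 for WT, 53.9 ± 5.94 for Smad2_KO1 and 46.1 ± 6.46 for Smad2_KO2 (SD, n = 4), and was not called.

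A second Sp5 interval is the 1 at that gene called in both treatments, 17.1 kb before the start (chr2:70457604-70457804 in Ctrl). In Ctrl it read 43.8, 42.1, 35.0 and 58.2 for WT, 23.9, 24.7, 13.1 and 28.9 for Smad2_KO1 and 21.0, 26.4, 17.0 and 22.1 for Smad2_KO2. In Paused its match, chr2:70457599-70457799, read 44.3, 54.7, 50.7 and 54.3 for WT, 24.7, 21.8, 24.2 and 18.9 for Smad2_KO1 and 21.0, 25.5, 29.2 and 37.2 for Smad2_KO2. No knockout library reached the lowest WT library of its treatment. The Ctrl log2 fold change was -0.98 for Smad2_KO1 and -1.01 for Smad2_KO2 (SE 0.215 each, limma adjusted p = 0.0015 and 0.00119). That in Paused was -1.16 for Smad2_KO1 and -0.86 for Smad2_KO2 (SE 0.19 each, limma adjusted p = 4.54e-05 and 0.0015).

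The third called Sp5 interval in Ctrl covers the end of the gene body (chr2:70477658-70477858). It read 33.1, 33.1, 38.3 and 41.0 for WT, 17.9, 18.5, 14.1 and 19.6 for Smad2_KO1 and 14.0, 15.5, 21.2 and 13.1 for Smad2_KO2. Every WT library was well above every knockout library. On the log2 scale the change against WT was -1.02 for Smad2_KO1 and -1.16 for Smad2_KO2 (SE 0.219 each, limma adjusted p = 0.0013 and 0.000287), and no Paused interval analysed here overlaps it. In Paused the other called interval (chr2:70456271-70456471) averaged 71.7 ± 15.1 for WT, 45.1 ± 7.66 for Smad2_KO1 and 45.9 ± 9.92 for Smad2_KO2 (SD, n = 4), with a log2 fold change of -0.65 for Smad2_KO1 and -0.64 for Smad2_KO2 (SE 0.169 each, limma adjusted p = 0.00588 and 0.00703). In the downstream flank 9.9 kb after the start, the Sp5 interval present in both treatments was not called in either: it averaged 40.4 ± 4.60 for WT, 45.6 ± 13.3 for Smad2_KO1 and 46.1 ± 7.20 for Smad2_KO2 in Ctrl and 65.5 ± 12.8 for WT, 69.0 ± 6.25 for Smad2_KO1 and 56.1 ± 11.2 for Smad2_KO2 in Paused (SD, n = 4). The called Sp5 intervals thus lie before the start in both treatments and, in Ctrl, also at the gene's end.

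**Figure D3:**
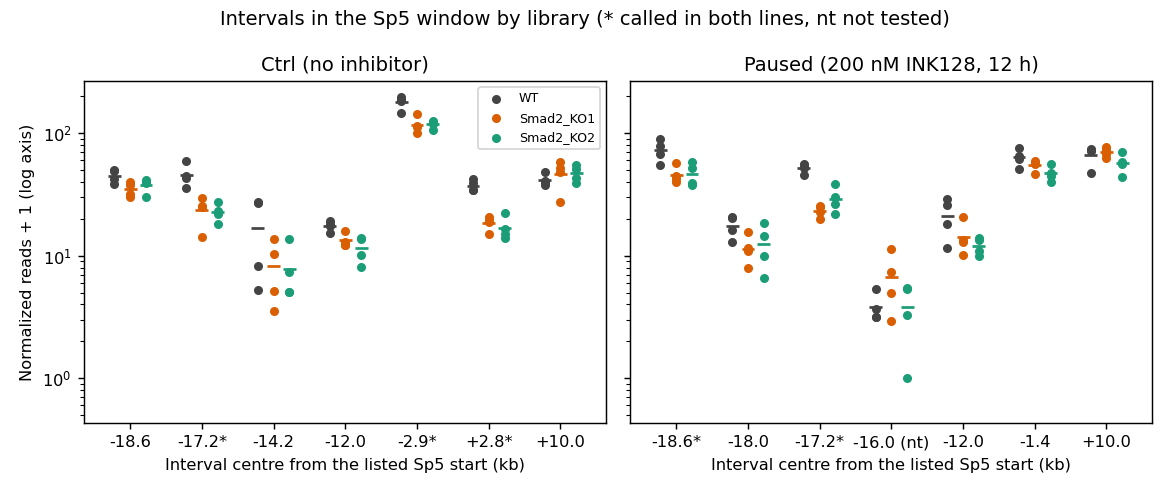
Normalized reads + 1 per library (y axis, log scale; bars are means of 4) at each interval of the Sp5 window, ordered by the distance of its centre from the listed start in kb (x axis), for Ctrl and Paused. An asterisk marks intervals called in both lines: in these the orange and green points of the knockout lines lie lower than the grey WT points, with some overlap at the interval farthest upstream in Paused.

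Further target genes among the 9 are Axin2, a scaffold of the destruction complex that acts as negative feedback, and Nkd1, which binds Dishevelled and dampens the signal. Axin2 sums were 1025 ± 49.5, 1003 ± 54.1 and 1017 ± 37.4 in WT, Smad2_KO1 and Smad2_KO2 in Ctrl, and 1162 ± 119, 1135 ± 44.6 and 1121 ± 41.7 in Paused (SD, n = 4), with overlapping groups. At the Axin2 start, the interval chr11:108920240-108920440, which overlaps the window printed above, read 289, 244, 226 and 280.4 for WT, 227, 205, 256 and 237 for Smad2_KO1 and 222, 215, 233 and 233 for Smad2_KO2 in Ctrl. The Paused match read 384, 264, 224 and 367 for WT, 257, 236, 257 and 296 for Smad2_KO1 and 257, 253, 267 and 296 for Smad2_KO2. WT and knockout libraries overlapped in both treatments. The log2 fold change was -0.16 for Smad2_KO1 and -0.19 for Smad2_KO2 (SE 0.0986 each, limma adjusted p = 0.287 and 0.207) in Ctrl and -0.22 for Smad2_KO1 and -0.17 for Smad2_KO2 (SE 0.113 each, limma adjusted p = 0.172 and 0.278) in Paused. WT replicate 3 was the lowest WT library in Paused, where the change was -0.34 without WT replicate 3 and was then called (adjusted p = 0.0239, where the alternatives ran up to 0.756).

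No Axin2 interval of 22 was called in both lines in Ctrl, while in Paused 4 of 17 were, 2 higher and 2 lower. The largest of these changes was at chr11:108898061-108898261, in the upstream flank 22.1 kb from the listed start. It read 23.8, 13.9, 23.7 and 59.6 for WT, 5.70, 10.9, 7.77 and 10.9 for Smad2_KO1 and 12.0, 13.5, 10.1 and 10.9 for Smad2_KO2. WT replicate 4 was far above the other WT libraries, and the lowest WT library was just above the highest knockout library. Against WT, the log2 fold change was -1.51 for Smad2_KO1 and -1.12 for Smad2_KO2 (SE 0.313 each, limma adjusted p = 0.000682 and 0.00996). The call was lost, at a mean log2 fold change of -0.93 without WT replicate 4 (adjusted p = 0.112, the highest of its alternatives).

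At Nkd1 none of 8 tested intervals in Ctrl and of 9 in Paused was called in both lines. Nkd1 sums were 573 ± 73.5, 534 ± 57.4 and 542 ± 27.9 in Ctrl and 769 ± 109.5, 726 ± 28.4 and 695 ± 45.7 in Paused for WT, Smad2_KO1 and Smad2_KO2 (SD, n = 4), and the groups overlapped. Its strongest interval sits at the 5′ edge of the gene body, 6.3 kb from the listed start, and averaged 191 ± 36.6 for WT, 176 ± 38.2 for Smad2_KO1 and 183 ± 22.9 for Smad2_KO2 in Ctrl. In Paused it read 375, 283, 196 and 336 for WT, 276, 250.1, 249 and 245 for Smad2_KO1 and 259.7, 219.7, 225 and 276 for Smad2_KO2. WT replicate 3 was below all knockout libraries while the other WT libraries were above them. The Paused log2 fold change was -0.18 for Smad2_KO1 and -0.25 for Smad2_KO2 (SE 0.118 each, limma adjusted p = 0.274 and 0.133). It was -0.40 without WT replicate 3, and then called (adjusted p = 0.00666, where the alternatives ran up to 0.764).

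Among the DNA-binding partners of β-catenin, Tcf7 (TCF1) had 2 called intervals of 22 tested in Ctrl and 4 of 25 in Paused. The stronger of those shared by both treatments lies 3.5 kb before a listed start, at chr11:52286477-52286677. It read 148, 142, 168 and 145 for WT, 101, 81.2, 109.6 and 107 for Smad2_KO1 and 97.2, 107, 88.2 and 109 for Smad2_KO2 in Ctrl. In Paused its match read 166, 165, 170.5 and 185 for WT, 119, 126, 117 and 126 for Smad2_KO1 and 119.9, 115, 129 and 143 for Smad2_KO2. Every knockout library was below every WT library in both. limma gave a log2 fold change of -0.60 for Smad2_KO1 and -0.58 for Smad2_KO2 (SE 0.121 each, limma adjusted p = 0.000667 and 0.000896) in Ctrl and -0.49 for Smad2_KO1 and -0.44 for Smad2_KO2 (SE 0.107 each, limma adjusted p = 0.00113 and 0.00329) in Paused.

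Farther upstream, 11.2 kb from a Tcf7 start, an interval of low signal went the other way. In Ctrl (chr11:52294256-52294456) it read 8.54, 9.85, 10.9 and 16.2 for WT, 32.5, 26.7, 28.1 and 20.8 for Smad2_KO1 and 22.1, 18.2, 20.2 and 19.1 for Smad2_KO2. Its Paused match read 20.5, 19.3, 10.8 and 11.9 for WT, 39.9, 31.7, 32.8 and 30.8 for Smad2_KO1 and 27.0, 28.5, 31.4 and 24.1 for Smad2_KO2. Knockout libraries were above WT libraries throughout. On the log2 scale the change against WT was 1.20 for Smad2_KO1 and 0.79 for Smad2_KO2 (SE 0.24 each, limma adjusted p = 0.000548 and 0.0251) in Ctrl and 1.11 for Smad2_KO1 and 0.83 for Smad2_KO2 (SE 0.218 each, limma adjusted p = 0.000401 and 0.0061) in Paused. The Ctrl call was lost in edgeR and DESeq2 on recovered reads, and with mean values of 0.88 without WT replicate 1, 0.97 without Smad2_KO2 replicate 1 and 0.99 without Smad2_KO2 replicate 3 (adjusted p up to 0.177); the Paused call was lost in DESeq2 (adjusted p = 0.0845, the highest of its alternatives).

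Within the Tcf7 body, the Paused interval chr11:52251016-52251216 averaged 22.1 ± 4.23 for WT, 11.8 ± 1.94 for Smad2_KO1 and 7.94 ± 2.57 for Smad2_KO2 (SD, n = 4) and its log2 fold change was -0.85 for Smad2_KO1 and -1.40 for Smad2_KO2 (SE 0.29 each, limma adjusted p = 0.0337 and 0.000765). That call was lost with mean values of -1.15 without WT replicate 1, -1.03 without WT replicate 3, -1.08 without WT replicate 4, -1.12 without Smad2_KO1 replicate 1, -1.12 without Smad2_KO1 replicate 3 and -1.09 without Smad2_KO1 replicate 4 (adjusted p up to 0.0924). Intervals at the Tcf7 start were not called: they averaged 52.4 ± 7.85 for WT, 46.1 ± 4.15 for Smad2_KO1 and 55.5 ± 9.50 for Smad2_KO2 in Ctrl and, at another of its starts, 104 ± 26.8 for WT, 93.2 ± 7.47 for Smad2_KO1 and 102 ± 7.76 for Smad2_KO2 in Paused. The strongest Tcf7 interval, in the downstream flank, averaged 209.8 ± 29.7 for WT, 214 ± 25.4 for Smad2_KO1 and 206 ± 18.5 for Smad2_KO2 in Ctrl. It averaged 283 ± 27.2 for WT, 247 ± 32.5 for Smad2_KO1 and 217 ± 12.4 for Smad2_KO2 in Paused, where Smad2_KO2 alone passed, at -0.20 for Smad2_KO1 and -0.38 for Smad2_KO2 (SE 0.0978 each, limma adjusted p = 0.145 and 0.00572). It was called in both lines with size factors (mean of both lines -0.39, adjusted p = 0.0303, where the alternatives ran up to 0.412), TMM factors (-0.38), edgeR (-0.38) and without WT replicate 3 (-0.36). It also passed with the knockout libraries tested together, as 1 group (-0.29) or averaged by number (-0.28). Tcf7 sums were 1307 ± 46.6, 1256 ± 81.1 and 1249 ± 36.2 in Ctrl and 1660.0 ± 95.8, 1548 ± 56.0 and 1483 ± 4.20 in Paused. The Paused sum changed by -0.10 for Smad2_KO1 and -0.16 for Smad2_KO2 (SE 0.0452 each, limma adjusted p = 0.0863 and 0.00529), so that Smad2_KO2 alone passed, and in Ctrl neither line did. With size factors (-0.23) and TMM factors (-0.22), as the mean of both lines, both passed in Paused.

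Lef1, a TCF/LEF factor that is itself induced by the pathway, had 1 called interval of 42 tested in Ctrl and 4 of 43 in Paused, all higher. The interval called in both treatments (chr3:131237005-131237205 in Ctrl) lies in the downstream flank and within the body of the neighbouring gene Hadh, a mitochondrial enzyme of fatty acid oxidation. It read 12.8, 22.4, 18.6 and 17.2 for WT, 35.9, 40.1, 40.3 and 39.3 for Smad2_KO1 and 35.1, 31.9, 37.2 and 41.3 for Smad2_KO2 in Ctrl. In Paused it read 31.3, 23.6, 24.8 and 14.6 for WT, 46.6, 68.9, 58.7 and 55.6 for Smad2_KO1 and 49.9, 44.2, 51.6 and 47.0 for Smad2_KO2. The groups did not overlap in either treatment. The log2 fold change was 1.11 for Smad2_KO1 and 1.01 for Smad2_KO2 (SE 0.194 each, limma adjusted p = 9.15e-05 and 0.000335) in Ctrl and 1.28 for Smad2_KO1 and 1.05 for Smad2_KO2 (SE 0.185 each, limma adjusted p = 6.06e-06 and 0.000116) in Paused.

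Inside Lef1 itself the largest change was at chr3:131184463-131184663, 28.2 kb from a listed start, in Paused. It read 21.6, 12.9, 30.2 and 15.9 for WT, 52.3, 53.5, 51.8 and 48.7 for Smad2_KO1 and 43.0, 46.5, 50.5 and 46.0 for Smad2_KO2. Every knockout library was above every WT library. Against WT, the log2 fold change was 1.38 for Smad2_KO1 and 1.23 for Smad2_KO2 (SE 0.192 each, limma adjusted p = 3.5e-06 and 2.17e-05). Its Ctrl match (chr3:131184469-131184669) averaged 25.6 ± 8.83 for WT, 29.3 ± 4.22 for Smad2_KO1 and 29.7 ± 5.12 for Smad2_KO2 (SD, n = 4) and was not called, at 0.25 for Smad2_KO1 and 0.27 for Smad2_KO2 (SE 0.218 each, limma adjusted p = 0.489 and 0.469).

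The strongest Lef1 interval, 7.8 kb before the gene, was not called in either treatment and averaged 351 ± 45.7 for WT, 335 ± 38.3 for Smad2_KO1 and 312 ± 55.8 for Smad2_KO2 in Ctrl and 293 ± 32.7 for WT, 250.3 ± 35.3 for Smad2_KO1 and 257 ± 39.2 for Smad2_KO2 in Paused. Nor was the interval 0.2 kb from an internal Lef1 start, which averaged 117 ± 13.8 for WT, 126 ± 8.95 for Smad2_KO1 and 118 ± 9.44 for Smad2_KO2 in Ctrl and 163 ± 19.4 for WT, 148 ± 13.4 for Smad2_KO1 and 153 ± 2.58 for Smad2_KO2 in Paused (SD, n = 4). Lef1 sums were 1996 ± 133, 2001 ± 19.1 and 1916 ± 143 in Ctrl and 2048 ± 109.5, 2157 ± 24.1 and 2170.2 ± 100.3 in Paused. The sign of the Paused sum changes with the scaling, from 0.08 on the log2 scale (mean of both lines) to -0.02 with size factors and -0.01 with TMM factors. Lef1 was called higher in Paused with library totals (0.11) and, on recovered reads, in edgeR and DESeq2 (0.13 each), and without WT replicate 1 (0.11). At locus sums edgeR and DESeq2 took their scaling from the sums, so they differ in scaling as well as in the test.

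Tcf7l1 (TCF3), the repressor of the family in these cells, had the most intervals, 97 in Ctrl and 88 in Paused. Of those tested, 4 of 92 were called in Ctrl, 3 higher and 1 lower, and 11 of 83 in Paused, 8 higher and 3 lower. In Paused, an interval within 1000 bases of the start (chr6:72788097-72788297) was not called. Its log2 fold change was -0.13 as the mean of both lines (higher limma adjusted p of the lines 0.656). The 3 higher intervals of Ctrl lie in the gene body and were called higher in Paused too. Of those 3, the interval nearest the start, 6.7 kb away (chr6:72782129-72782329), read 66.2, 69.9, 59.1 and 53.9 for WT, 94.9, 108, 96.5 and 87.8 for Smad2_KO1 and 91.2, 133, 91.4 and 107 for Smad2_KO2 in Ctrl. In Paused it read 76.6, 54.7, 62.6 and 33.1 for WT, 110.2, 138, 106 and 96.3 for Smad2_KO1 and 109.9, 141, 101 and 89.7 for Smad2_KO2. All knockout libraries were above all WT libraries. limma gave a log2 fold change of 0.63 for Smad2_KO1 and 0.74 for Smad2_KO2 (SE 0.136 each, limma adjusted p = 0.00125 and 0.000184) in Ctrl and 1.03 for Smad2_KO1 and 0.99 for Smad2_KO2 (SE 0.164 each, limma adjusted p = 3.1e-05 and 5.24e-05) in Paused.

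Deeper in the Tcf7l1 body, the interval 51.9 kb from the start (chr6:72736933-72737133) averaged 57.4 ± 11.3 for WT, 99.2 ± 18.4 for Smad2_KO1 and 89.7 ± 16.7 for Smad2_KO2 in Ctrl and 73.9 ± 9.96 for WT, 125 ± 5.27 for Smad2_KO1 and 104 ± 7.91 for Smad2_KO2 in Paused. The groups overlapped slightly in Ctrl, through Smad2_KO2 replicate 3, and not in Paused. On the log2 scale the change against WT was 0.78 for Smad2_KO1 and 0.64 for Smad2_KO2 (SE 0.152 each, limma adjusted p = 0.000392 and 0.00379) in Ctrl and 0.76 for Smad2_KO1 and 0.49 for Smad2_KO2 (SE 0.121 each, limma adjusted p = 3e-05 and 0.00373) in Paused. The Paused call was lost in DESeq2 (0.52 as the mean of both lines, adjusted p = 0.0732, the highest of its alternatives). The interval 48.2 kb from the start (chr6:72740607-72740807) averaged 85.7 ± 11.0 for WT, 139 ± 20.9 for Smad2_KO1 and 113 ± 14.1 for Smad2_KO2 in Ctrl and 87.5 ± 11.9 for WT, 139 ± 16.1 for Smad2_KO1 and 132 ± 16.1 for Smad2_KO2 in Paused, with a log2 fold change of 0.69 for Smad2_KO1 and 0.40 for Smad2_KO2 (SE 0.128 each, limma adjusted p = 0.00022 and 0.0353) and 0.66 for Smad2_KO1 and 0.58 for Smad2_KO2 (SE 0.123 each, limma adjusted p = 0.000199 and 0.000836). Its Ctrl call was lost with size factors, TMM factors, edgeR and DESeq2, and with mean values of 0.48 without WT replicate 1, 0.50 without WT replicate 4, 0.50 without Smad2_KO2 replicate 2 and 0.54 without Smad2_KO2 replicate 3 (adjusted p up to 0.164).

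The Tcf7l1 interval with the highest signal among all 9 genes, 111.2 kb from the start (chr6:72677657-72677857), averaged 559 ± 15.7 for WT, 547 ± 39.6 for Smad2_KO1 and 509.8 ± 39.5 for Smad2_KO2 in Ctrl and 558 ± 42.6 for WT, 496 ± 21.8 for Smad2_KO1 and 465 ± 8.74 for Smad2_KO2 in Paused (SD, n = 4). It was not called in both lines, although Smad2_KO2 passed in Paused at -0.17 for Smad2_KO1 and -0.26 for Smad2_KO2 (SE 0.0746 each, limma adjusted p = 0.108 and 0.0122). It was called in both with TMM factors, edgeR and DESeq2 and with size factors (-0.32 as the mean of both lines, adjusted p = 0.0165, where the alternatives ran up to 0.265). The Tcf7l1 interval called lower in both treatments lies in the upstream flank (chr6:72794945-72795145) and averaged 410.1 ± 29.8 for WT, 315 ± 30.3 for Smad2_KO1 and 271 ± 32.7 for Smad2_KO2 in Ctrl and 309 ± 40.2 for WT, 249 ± 10.4 for Smad2_KO1 and 249.7 ± 21.2 for Smad2_KO2 in Paused. The log2 fold change was -0.38 for Smad2_KO1 and -0.60 for Smad2_KO2 (SE 0.0938 each, limma adjusted p = 0.00464 and 1.7e-05) and -0.30 for Smad2_KO1 and -0.30 for Smad2_KO2 (SE 0.0943 each, limma adjusted p = 0.0194 and 0.0202). This interval is the eleventh of those called in both treatments, outside the 10 named by the rule, and was chosen after its values were seen. Tcf7l1 sums were 5349 ± 254, 5594 ± 141 and 5309 ± 237 in Ctrl and 5115 ± 226, 5331 ± 92.4 and 5169 ± 179 in Paused.

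Tcf7l2 (TCF4), which has both activating and repressing isoforms, had 5 called intervals of 52 tested in Ctrl (2 higher, 3 lower) and 5 of 58 in Paused (3 higher, 2 lower). Sites in its body went opposite ways. At chr19:55756691-55756891, 14.9 kb past the start, signal was higher in the knockout lines and read 14.9, 14.3, 19.7 and 8.63 for WT, 39.3, 31.9, 33.7 and 35.8 for Smad2_KO1 and 30.1, 31.9, 21.2 and 41.3 for Smad2_KO2 in Ctrl. The Paused match read 9.72, 11.8, 17.3 and 11.9 for WT, 43.7, 33.5, 28.5 and 24.8 for Smad2_KO1 and 35.0, 30.8, 25.8 and 20.8 for Smad2_KO2. Every knockout library was above every WT library, by a small margin in Smad2_KO2 replicate 3 in Ctrl. Against WT, the log2 fold change was 1.28 for Smad2_KO1 and 1.07 for Smad2_KO2 (SE 0.223 each, limma adjusted p = 8.82e-05 and 0.00086) in Ctrl and 1.30 for Smad2_KO1 and 1.09 for Smad2_KO2 (SE 0.23 each, limma adjusted p = 0.000118 and 0.000882) in Paused.

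At chr19:55794452-55794652, 52.6 kb past the Tcf7l2 start, signal was lower and read 55.5, 41.2, 36.1 and 56.1 for WT, 29.9, 26.7, 29.1 and 21.9 for Smad2_KO1 and 32.1, 20.9, 24.4 and 35.2 for Smad2_KO2 in Ctrl. The Paused match read 54.0, 47.2, 48.5 and 64.9 for WT, 23.8, 37.1, 29.4 and 22.8 for Smad2_KO1 and 25.0, 24.0, 35.9 and 27.4 for Smad2_KO2. The groups did not overlap in either treatment. limma gave a log2 fold change of -0.77 for Smad2_KO1 and -0.73 for Smad2_KO2 (SE 0.195 each, limma adjusted p = 0.00584 and 0.00995) in Ctrl and -0.92 for Smad2_KO1 and -0.92 for Smad2_KO2 (SE 0.188 each, limma adjusted p = 0.000658 and 0.000671) in Paused. The Ctrl call was lost at a mean of -0.69 without Smad2_KO2 replicate 2 (adjusted p = 0.0614, the highest of its alternatives).

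The next Tcf7l2 interval (chr19:55795467-55795667) was called lower in Ctrl with overlapping groups, and averaged 24.1 ± 11.5 for WT, 10.5 ± 3.01 for Smad2_KO1 and 9.78 ± 3.75 for Smad2_KO2. On the log2 scale the change against WT was -1.02 for Smad2_KO1 and -1.16 for Smad2_KO2 (SE 0.317 each, limma adjusted p = 0.0264 and 0.0119). The call was lost with mean values of -0.84 without WT replicate 3, -0.96 without WT replicate 4, -1.05 without Smad2_KO1 replicate 1, -1.07 without Smad2_KO1 replicate 2, -1.07 without Smad2_KO1 replicate 4 and -0.97 without Smad2_KO2 replicate 3 (adjusted p up to 0.142). In Paused, chr19:55875727-55875927 averaged 17.9 ± 7.93 for WT, 7.26 ± 3.00 for Smad2_KO1 and 7.75 ± 4.07 for Smad2_KO2, also with overlap, and changed by -1.16 for Smad2_KO1 and -1.13 for Smad2_KO2 (SE 0.383 each, limma adjusted p = 0.0284 and 0.0334). That call was lost with mean values of -0.98 without WT replicate 3, -0.95 without WT replicate 4, -1.02 without Smad2_KO1 replicate 2, -1.15 without Smad2_KO1 replicate 3, -1.11 without Smad2_KO2 replicate 1 and -0.99 without Smad2_KO2 replicate 4 (adjusted p up to 0.13).

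In the flank after Tcf7l2, chr19:55941579-55941779 averaged 14.1 ± 0.95 for WT, 24.9 ± 3.57 for Smad2_KO1 and 26.1 ± 4.36 for Smad2_KO2 in Ctrl and 21.8 ± 2.34 for WT, 40.5 ± 6.36 for Smad2_KO1 and 42.7 ± 5.35 for Smad2_KO2 in Paused (SD, n = 4), with no overlap between WT and knockout libraries. The log2 fold change was 0.77 for Smad2_KO1 and 0.83 for Smad2_KO2 (SE 0.219 each, limma adjusted p = 0.0155 and 0.00911) in Ctrl and 0.86 for Smad2_KO1 and 0.94 for Smad2_KO2 (SE 0.182 each, limma adjusted p = 0.000899 and 0.000363) in Paused. The Ctrl call was lost in DESeq2 and with mean values of 0.78 without Smad2_KO1 replicate 1 and 0.75 without Smad2_KO2 replicate 2 (adjusted p up to 0.13). The Tcf7l2 start, whose upstream sequence is printed above, holds the strongest interval of the gene (chr19:55741611-55741811). It averaged 279.7 ± 45.1 for WT, 251 ± 23.3 for Smad2_KO1 and 254 ± 23.7 for Smad2_KO2 in Ctrl and 384 ± 81.7 for WT, 338 ± 20.0 for Smad2_KO1 and 331 ± 8.60 for Smad2_KO2 in Paused, and its log2 fold change of -0.15 for Smad2_KO1 and -0.13 for Smad2_KO2 (SE 0.102 each, limma adjusted p = 0.368 and 0.459) in Ctrl and -0.16 for Smad2_KO1 and -0.19 for Smad2_KO2 (SE 0.0982 each, limma adjusted p = 0.252 and 0.17) in Paused was not called. Tcf7l2 sums were 2108 ± 108, 2116 ± 115 and 2132 ± 26.7 in Ctrl and 2604 ± 133, 2669 ± 32.5 and 2618 ± 69.1 in Paused.

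**Figure D4:**
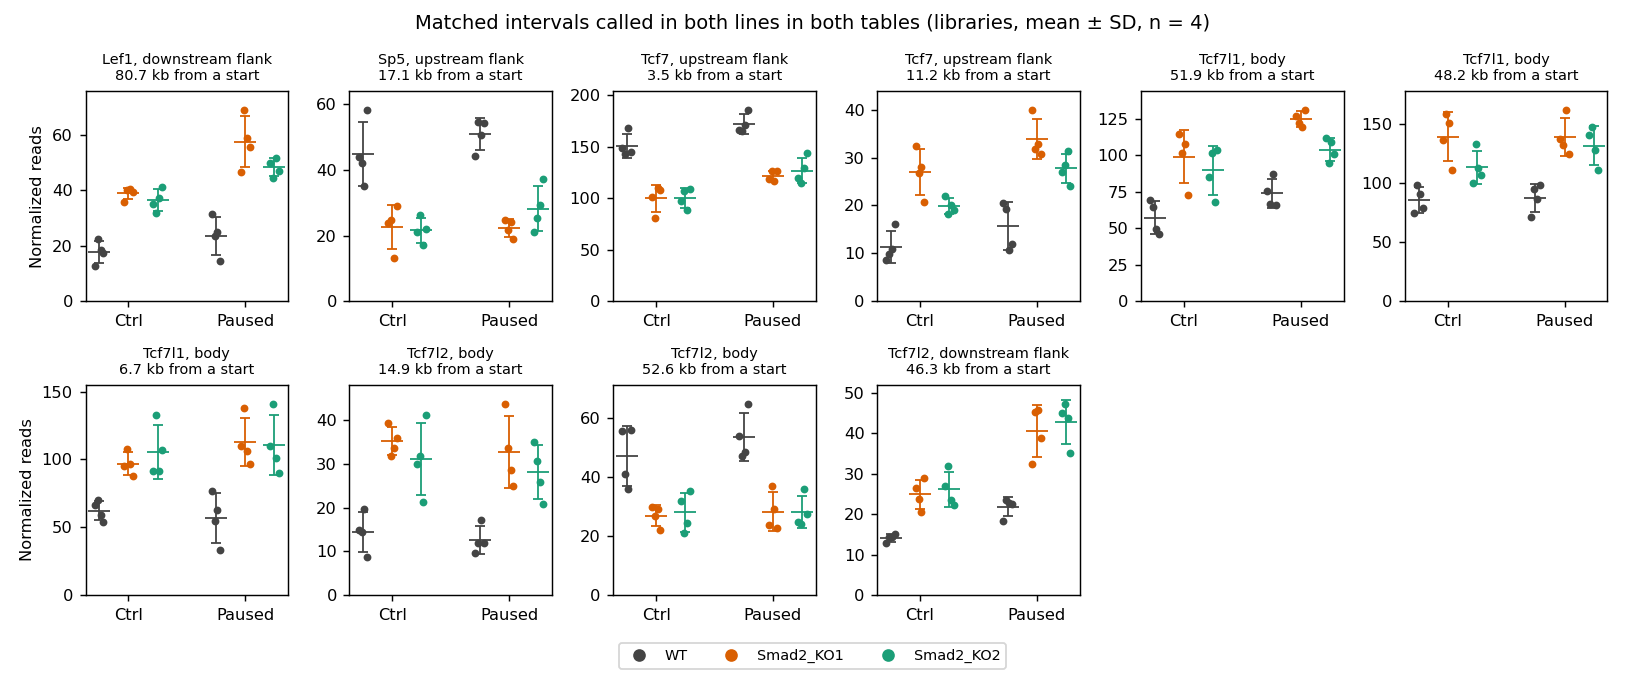
Normalized reads per library (y axis, from 0; small points, with mean ± SD over 4 libraries) at 10 of the 11 matched intervals called in both lines in both treatments, for WT, Smad2_KO1 and Smad2_KO2 in Ctrl and Paused (x axis), each with its distance from the nearest listed start. 1 interval each at Sp5, Tcf7 and Tcf7l2 is lower in the knockout lines, and the other 7 are higher; levels in Ctrl and Paused were normalized separately.

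Ctnnb1, which encodes β-catenin, had no interval called in both lines, of 16 tested in Ctrl and 19 in Paused. At its start (chr9:120933258-120933458) the values were 106, 76.1, 64.6 and 102 for WT, 97.5, 67.8, 70.3 and 85.5 for Smad2_KO1 and 106, 65.5, 109 and 78.5 for Smad2_KO2 in Ctrl. In Paused they were 161, 122, 82.0 and 128 for WT, 109, 101, 103 and 106 for Smad2_KO1 and 115, 86.2, 89.8 and 96.3 for Smad2_KO2. The groups overlapped in both. Against WT, the log2 fold change was -0.10 for Smad2_KO1 and 0.04 for Smad2_KO2 (SE 0.155 each, limma adjusted p = 0.715 and 0.903) in Ctrl and -0.20 for Smad2_KO1 and -0.32 for Smad2_KO2 (SE 0.138 each, limma adjusted p = 0.325 and 0.0983) in Paused. Without WT replicate 3, the lowest WT library, the Paused change was -0.44 and was called (adjusted p = 0.0318, where the alternatives ran up to 0.823).

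The strongest interval of the Ctnnb1 window lies 13.9 kb before the start (chr9:120919340-120919540) and averaged 259.8 ± 10.8 for WT, 234 ± 22.3 for Smad2_KO1 and 229.9 ± 24.8 for Smad2_KO2 in Ctrl and 331 ± 13.2 for WT, 285 ± 12.6 for Smad2_KO1 and 278 ± 37.4 for Smad2_KO2 in Paused. In Paused, Smad2_KO2 passed and Smad2_KO1 did not, at -0.22 for Smad2_KO1 and -0.26 for Smad2_KO2 (SE 0.0901 each, limma adjusted p = 0.0795 and 0.0345). It was called in both lines with TMM factors, edgeR and DESeq2 and with size factors (-0.34, adjusted p = 0.0172, where the alternatives ran up to 0.19). Ctnnb1 sums were 866 ± 34.7, 828 ± 56.9 and 848 ± 35.9 in Ctrl and 1183 ± 74.3, 1096 ± 19.0 and 1081 ± 42.7 in Paused (SD, n = 4). In Paused all WT libraries but replicate 3 were above every knockout library, and the log2 fold change was -0.11 for Smad2_KO1 and -0.13 for Smad2_KO2 (SE 0.0498 each, limma adjusted p = 0.0885 and 0.04).

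Lgr5, the receptor for R-spondins that raises Wnt receptor levels at the surface and is a target gene too, had 1 called interval of 25 tested in Ctrl and 3 of 18 in Paused. In Ctrl, chr10:115492212-115492412 in the gene body read 32.0, 20.6, 39.4 and 38.8 for WT, 15.4, 20.6, 15.9 and 16.2 for Smad2_KO1 and 20.0, 12.7, 18.1 and 17.1 for Smad2_KO2. WT replicate 2 stood at the level of the highest knockout library and the other WT libraries were above all of them. limma gave a log2 fold change of -0.87 for Smad2_KO1 and -0.88 for Smad2_KO2 (SE 0.231 each, limma adjusted p = 0.00882 and 0.00841). No Paused interval was matched to it.

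In Paused, 1 Lgr5 interval was called lower and 2 of low signal were called higher. The lower 1 (chr10:115475098-115475298, described after its values were seen) read 68.0, 75.1, 72.3 and 79.5 for WT, 33.3, 29.0, 40.6 and 42.7 for Smad2_KO1 and 45.0, 27.0, 51.6 and 47.0 for Smad2_KO2. Every knockout library was below every WT library, and limma gave a log2 fold change of -1.01 for Smad2_KO1 and -0.81 for Smad2_KO2 (SE 0.173 each, limma adjusted p = 7.36e-05 and 0.000993). Its Ctrl match averaged 98.1 ± 8.06 for WT, 61.4 ± 7.69 for Smad2_KO1 and 77.1 ± 6.24 for Smad2_KO2 (SD, n = 4), and there Smad2_KO1 alone passed, at -0.67 for Smad2_KO1 and -0.34 for Smad2_KO2 (SE 0.135 each, limma adjusted p = 0.000564 and 0.0911). At chr10:115452972-115453172 the averages were 10.8 ± 3.69 for WT, 22.6 ± 2.64 for Smad2_KO1 and 22.8 ± 3.07 for Smad2_KO2, and the log2 fold change was 1.05 for Smad2_KO1 and 1.07 for Smad2_KO2 (SE 0.256 each, limma adjusted p = 0.00328 and 0.00304). At chr10:115476638-115476838 they were 8.18 ± 2.20 for WT, 17.3 ± 2.06 for Smad2_KO1 and 18.7 ± 3.31 for Smad2_KO2, and the log2 fold change was 1.03 for Smad2_KO1 and 1.12 for Smad2_KO2 (SE 0.274 each, limma adjusted p = 0.00714 and 0.00352), a call lost in DESeq2 (adjusted p = 0.0707, the highest of its alternatives). The strongest Lgr5 interval (chr10:115469034-115469234) was not called, and averaged 255 ± 14.5 for WT, 241 ± 5.77 for Smad2_KO1 and 238 ± 33.5 for Smad2_KO2 in Ctrl and 235 ± 16.9 for WT, 202 ± 23.0 for Smad2_KO1 and 212 ± 26.9 for Smad2_KO2 in Paused.

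Lgr5 sums were 1018 ± 34.9, 906 ± 20.7 and 929 ± 60.5 in WT, Smad2_KO1 and Smad2_KO2 in Ctrl, with every knockout library below every WT library. On the log2 scale the change against WT was -0.17 for Smad2_KO1 and -0.13 for Smad2_KO2 (SE 0.0574 each, limma adjusted p = 0.0456 and 0.122), so that Smad2_KO1 alone passed. With size factors or TMM factors the mean over the lines was -0.22 and -0.21 and both lines passed. In Paused the sums were 844 ± 46.0, 772 ± 46.3 and 796 ± 29.3 and overlapped, and both lines passed with size factors (-0.21) and TMM factors (-0.20) alone among the alternatives.

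Between treatments, 206 member intervals matched by at least 50% of each interval, which is 68.0% of those in Ctrl and 71.8% of those in Paused. Of these, 11 were called in both lines in both treatments with the same sign, 7 higher and 4 lower, and 0 with opposite signs. They are 5.34% of the matched member intervals, 68.8% of the members' Ctrl calls and 33.3% of their Paused calls. Over both whole tables, 10240 of 215826 matched intervals were so called, which is 4.74%, and these are 50.8% of all Ctrl calls and 28.2% of all Paused calls. The tables were normalized separately and have their own intervals, so no test of Paused against Ctrl was made.

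The other pathway genes, a list of 57, were measured in the same fit. In Ctrl, 81 of their 1123 tested intervals were called in both lines, 30 higher and 51 lower, which is 7.21% beside 7.15% of all intervals. In Paused, 148 of 1040 were called, 72 higher and 76 lower, or 14.2% beside 13.9%. Among all tested intervals, 3.95% were called higher and 3.2% lower in Ctrl, and 9.01% and 4.92% in Paused. Of the 57 locus sums, 10 were called lower in Ctrl, where 5.0% of all loci were, and 22 in Paused, where 20.5% of all loci were. Locus sums called higher numbered 0 in Ctrl and 1 in Paused. Among all loci, 8.35% in Ctrl and 27.1% in Paused were called in either direction. Target genes (T, Cdx1, Cdx2, Sp8, Ccnd1, Myc, Rnf43, Notum and Zcchc12) had 15 called intervals of 123 in Ctrl (12.2%), all lower. In Paused they had 18 of 114 (15.8%), 16 of them lower. The Ctrl calls were at Myc (6), Rnf43 (5), T (3) and Notum (1), with 0 at the other targets. In Paused every target gene had at least 1. Secreted inhibitors (Dkk, Sfrp, Frzb, Wif1 and Notum) had 6 higher and 4 lower in Ctrl and 15 higher and 2 lower in Paused. Ligands had 6 higher and 17 lower in Ctrl and 11 higher and 14 lower in Paused. Receptors and surface regulators had 9 higher and 17 lower in Ctrl and 21 higher and 16 lower in Paused. Members of the destruction complex and cytoplasmic factors had 5 higher and 1 lower in Ctrl, and 17 higher and 19 lower in Paused. Nuclear cofactors had 4 higher and 3 lower in Ctrl and 7 higher and 12 lower in Paused. Some genes stand in 2 of these groups. With size factors the targets had 0 higher and 24 lower in Ctrl and 2 higher and 30 lower in Paused, and the secreted inhibitors 4 higher and 5 lower in Ctrl and 11 higher and 5 lower in Paused. The receptors and surface regulators then had 5 higher and 26 lower in Ctrl and 11 higher and 33 lower in Paused, so that the Paused direction turned. The cytoplasmic factors had 3 higher and 4 lower in Ctrl, where the direction turned too, and 10 higher and 32 lower in Paused. For the ligands it was 6 and 23, and 7 and 28, and for the nuclear cofactors 4 and 10, and 3 and 23. Over all 57 genes the split with size factors was 22 higher and 84 lower in Ctrl and 43 higher and 141 lower in Paused, and with library totals 34 and 50, and 88 and 65. The whole tables moved the same way. Of all called intervals, 55.2% were higher in Ctrl and 64.7% in Paused, and 37.4% and 41.0% with size factors. Median log2 fold changes were -0.12 over target intervals in Ctrl and -0.10 in Paused, beside 0.08 and 0.12 over all intervals.

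Named by size, an interval near Myc (chr15:61991027-61991227), a growth regulator and pathway target, went from 25.5 ± 6.83 in WT to 6.28 ± 2.66 and 8.56 ± 3.24 in the knockout lines in Ctrl (SD, n = 4; log2 fold change -1.91 and -1.50, limma adjusted p = 7.23e-05 and 0.00156). An interval near the ligand gene Wnt8a was called lower in both treatments: 36.4 ± 17.6 in WT against 13.6 ± 4.40 and 12.9 ± 2.27 in Ctrl, and 30.1 ± 11.0 against 11.5 ± 1.47 and 11.3 ± 2.97 in Paused. At the receptor gene Fzd2 (chr11:102595421-102595621), Paused signal was 151.9 ± 16.5 in WT against 74.5 ± 7.58 and 75.4 ± 12.6 (log2 fold change -1.02 and -1.01, limma adjusted p = 8.75e-07 and 9.85e-07). The largest called increases were at low signal, such as near the ligand gene Wnt5b in Ctrl (chr6:119508263-119508463), from 6.45 ± 3.09 to 18.3 ± 2.74 and 18.4 ± 3.11. In Paused the largest increases were near Gsk3b (log2 fold change 1.85 for Smad2_KO1 and 1.59 for Smad2_KO2), Lrp6 (1.33 and 1.48) and Fzd3 (1.33 and 1.29). WT averaged 4.23 ± 2.34 near Gsk3b, 4.56 ± 1.60 near Lrp6 and 9.20 ± 3.76 near Fzd3 (SD, n = 4). These averages, and that near Wnt5b in Ctrl, are below the filter value of 10. Such intervals could pass the filter only with knockout libraries. The largest called decrease in Paused was near Lrp5 (-1.63 and -1.24).

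Over the 24 libraries, with each treatment centred, the protein-coding gene on another chromosome whose locus sum ran most like Sp5 was Ddr1 (Pearson r = 0.918 among 20186 genes searched). For Nkd1 it was Prr14l (0.923), for Ctnnb1 Pdcl3 (0.904), for Tcf7 Esrp2 (0.903) and for Tcf7l2 Stab1 (0.897). For Lgr5 it was Abcb5 (0.857), for Lef1 Bckdhb (0.842), for Tcf7l1 Slc10a7 (0.806) and for Axin2 Zfp865 (0.799). These values are descriptions, since each is the highest of many and the libraries share their depth and scaling.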

How the data were processed

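ATAC-seq was analysed from 1 deposited table per treatment. Reads were handled with FastQC, Trim Galore, Bowtie2 2.4.1, MACS3 3.0.3 and DiffBind 3.16.0 on mm10, per the submitters' processing notes; their settings are not given in the sources used here. The authors deposited normalized signal per interval and library; every value is a whole multiple of 1 step per library (within 0.0055), which gave back whole reads for 100% of values. The authors also deposited a log2 fold change, a p-value and a false discovery rate of the knockout against the WT libraries.

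limma 3.58.1 in R 4.3.3 was fitted to log2(value + 1), with trend, on intervals reaching 10 in at least 4 libraries. Intervals of low signal can pass this filter through the group in which they are high, in either direction. Each treatment was fitted alone, on its 12 libraries, with line as factor. Benjamini-Hochberg adjustment ran over all tested intervals, and an adjusted p under 0.05 was called. Because 1 was added before taking logs, fold changes of low intervals come out too small. Locus sums of every protein-coding gene were fitted the same way, and the steps were tested on simulated data. Genes and starts came from RefSeq tables of GRCm38.p6, the same assembly as mm10. Exons and introns were not assigned, and no start was used for Lgr5.

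Named intervals follow a rule: per gene and treatment the strongest and that at a start, the 5 largest changes each way, and 10 called in both treatments. Members and lists were chosen with earlier results of these data known. edgeR 4.0.16 and DESeq2 1.42.0 on recovered reads, other scalings, filters, pseudocounts, groupings and leaving out each library served as alternatives. For locus sums, edgeR and DESeq2 computed their scaling factors from the sums rather than from the intervals. The replicate numbers were not used to pair libraries, except in the alternative with a replicate block and in the averaging of same-numbered knockout libraries. The labels name no batch.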

Additional observations from a re-analysis of the deposited data

Results flagged for a closer look

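Among 225 groups of 4 libraries at the named intervals and loci, 10 had a library whose gap to the nearest other exceeded Dixon's critical value as a share of the group's range, where 11.2 would be so by chance. 
In Ctrl, Smad2_KO1 replicate 2 stood apart at an internal Lef1 start (113 normalized reads, the others 129 to 133), at the strongest Nkd1 interval (119, the others 192 to 199.8) and at the called Lgr5 interval (20.6, the others 15.4 to 16.2). Smad2_KO1 replicate 3 read 15.0 at the Tcf7l2 interval 53.7 kb from a start, where the others read 8.55 to 9.25. WT replicate 4 had an Axin2 sum of 1099, the others 999 to 1002.
In Paused, WT replicate 1 read 201 near the Tcf7l1 start (the others 138 to 146) and 46.4 at the Sp5 interval in the downstream flank (the others 70.2 to 73.0). Smad2_KO1 replicate 2 read 168 at the internal Lef1 start (the others 139 to 142), Smad2_KO1 replicate 1 read 276 at the strongest Nkd1 interval (the others 245 to 250.1), and Smad2_KO2 replicate 4 read 315 at the strongest Lef1 interval (the others 232 to 245).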

How the results depend on the processing

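Of the alternatives over named intervals and locus sums, 1487 kept direction and side of the threshold, 39 lost the call, 38 gained it and 42 changed sign, all of the latter at values that were not called. The Sp5 sum was called lower, in Ctrl and in Paused, under every scaling, test, grouping and left-out library that was run. Both lines passed wherever they were tested apart. The count of called member intervals (16 in Ctrl, 33 in Paused) was 44 and 64 with the 8 knockout libraries as 1 group, 33 in Ctrl with same-numbered knockout libraries averaged (44 in Paused), and 4 and 7 when a change of 1 or more on the log2 scale was also required. On recovered reads, edgeR called 21 and 37 and DESeq2 14 and 24. Without single libraries, the Ctrl count ran from 12 to 19 and the Paused count from 25 to 40. With 1 knockout group or averaging, the knockout libraries were tested together, not each line. Loci called were 2 in Ctrl (Lgr5 beside Sp5) with size factors, TMM factors, 1 knockout group and averaging. In Paused they were 4 with size factors and with TMM factors (Ctnnb1, Lgr5 and Tcf7 beside Sp5), 3 with 1 knockout group (Ctnnb1 and Tcf7), and 2 with library totals, edgeR and DESeq2 (Lef1) and with averaging (Tcf7). Without single libraries they were 1 in Ctrl and 1 to 2 in Paused, where Lef1 was added without WT replicate 1 (0.11), Tcf7 without WT replicate 2 (-0.15) and Ctnnb1 without WT replicate 3 (-0.15). The authors' deposited table lists 19 and 32 member intervals at a false discovery rate under 0.01, against 34 and 52 at 0.05. Matching by 1 base gave 220 intervals in place of 206. With the replicate number as a block (replicate block), 21 Ctrl and 38 Paused intervals were called, with all calls of the fit without it kept. Sp5 remained the 1 called locus in each treatment. Same-numbered libraries, WT included, deviated together with a mean r of 0.027 in Ctrl and 0.052 in Paused. Between same-numbered knockout libraries, r was 0.187 for replicate 2 and 0.111 for replicate 4 in Paused, and 0.109 for replicate 4 in Ctrl. For the other knockout pairs it was 0.089 (replicate 1) and 0.034 (replicate 3) in Paused. In Ctrl these were 0.049, 0.039 and 0.008 (replicates 1, 2 and 3). Whether same-numbered knockout libraries share a source was not tested. The cause of the shifts in the counts of calls was not tested. Signs changed at values near 0. The values were, for Lef1 at 131156501 in Ctrl (0.069 as reported) -0.0018 with size factors, -0.0071 with DESeq2, -0.014 to 0.12 without single libraries; for Tcf7 at 52227566 in Ctrl (0.0041 as reported) -0.067 with size factors, -0.060 with TMM factors, -0.063 with edgeR, -0.070 with DESeq2, -0.095 to 0.067 without single libraries; for Tcf7 at 52283104 in Ctrl (-0.047 as reported) -0.15 to 0.020 without single libraries; for Ctnnb1 at 120933258 in Ctrl (-0.032 as reported) -0.16 to 0.069 without single libraries. The values were, for Nkd1 at 88521140 in Ctrl (-0.083 as reported) -0.19 to 0.0057 without single libraries; for Axin2 sum in Ctrl (-0.021 as reported) -0.033 to 0.013 without single libraries; for Lef1 sum in Ctrl (-0.026 as reported) -0.055 to 0.0037 without single libraries; for Tcf7l1 sum in Ctrl (0.027 as reported) -0.045 with size factors, -0.037 with TMM factors, -0.0073 to 0.044 without single libraries. The values were, for Tcf7l2 sum in Ctrl (0.011 as reported) -0.060 with size factors, -0.053 with TMM factors, -0.025 to 0.030 without single libraries; for Tcf7 at 52282778 in Paused (-0.064 as reported) -0.20 to 0.053 without single libraries; for Axin2 sum in Paused (-0.038 as reported) 0.013 with edgeR, 0.013 with DESeq2, -0.089 to 0.0080 without single libraries; for Lef1 sum in Paused (0.080 as reported) -0.024 with size factors, -0.013 with TMM factors. The values were, for Tcf7l1 sum in Paused (0.038 as reported) -0.066 with size factors, -0.055 with TMM factors; for Tcf7l2 sum in Paused (0.023 as reported) -0.081 with size factors, -0.070 with TMM factors, -0.0092 to 0.049 without single libraries. Low read counts limit the precision of the weaker intervals.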
